A study of Mus musculus with 147 samples.

Results

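Interferon-stimulated genes are the genes that cells switch on when interferons bind their receptors. A list of 37 of them was followed by gene symbol through the 50686 gene identifiers of a study of sorted mouse macrophages and monocytes, and each of the 37 matched 1 identifier. By role they are 3 transcription factors (Irf7, Irf9 and Stat2), 7 nucleic acid sensors (Ddx58, Ifih1, Dhx58, Zbp1, Ifi204, Ifi205 and Ifi213) and 5 RNA-binding inhibitors of translation (Ifit1, Ifit2, Ifit3, Ifit3b and Eif2ak2). Another 8 are antiviral enzymes or their relatives (Oasl1, Oasl2, Oas1a, Oas2, Oas3, Isg20, Rsad2 and Cmpk2), 3 belong to the ISG15 pathway (Isg15, Usp18 and Herc6) and 4 are GTPases (Mx1, Mx2, Gbp2 and Gbp3). The last 7 are Ifi44, Ifi27l2a, Bst2, Xaf1, Rtp4, Parp14 and Trim30a. In the refeeding experiment, mice went without food for 12 h (fasted, 52 libraries) or were fed for 2 h after such a fast (refed, 58 libraries). It held 6 fasted and 7 refed libraries of Kupffer cells, the macrophages of the liver, and as many of pancreatic islet macrophages. Adipose tissue macrophages, colonic macrophages, microglia (the macrophages of the brain) and monocytes each had 8 fasted and 9 refed libraries, and peritoneal macrophages had 8 and 8. In the diet experiment, animals ate a normal diet, a high-fat diet over 8 weeks, or the high-fat diet with streptozotocin (STZ), which kills beta cells, given at week 4. It held 4, 4 and 3 islet libraries in that order, 4, 4 and 4 microglia libraries, and 5, 4 and 5 peritoneal libraries. Strain, sex, age and genotype are not given in the labels used here.

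Type I interferons bind the receptor formed by Ifnar1 and Ifnar2, and the kinases on that receptor phosphorylate Stat2, among others. With Irf9 it takes part in a complex that binds a short element, GAAANNGAAA or its close relatives, in the promoters of interferon-stimulated genes. Resident macrophages keep part of this program on without infection, and many of its products sense viral nucleic acid or stop viral translation and budding.

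That element is shown here because it is what the members' promoters are known to share. RefSeq promoters (build GRCm38.p6) were held for 27 of the 37 genes, and GAAANNGAAA was searched on both strands (as TTTCNNTTTC on the other) in the 250 bases before each start, with overlapping matches counted apart. It was found in 14 of the 27 (51.9%), against 936 of 27025 genes with a promoter of the same length (3.46%). Capitals mark the matches in the windows that follow, each written 5′ to 3′ along the gene's strand. They are examples from the 14 genes with a match.
Ifit1 (chr19:34640773-34640825, plus strand): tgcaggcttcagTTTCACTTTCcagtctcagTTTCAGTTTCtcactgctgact
Ifit3 (chr19:34583361-34583428, plus strand): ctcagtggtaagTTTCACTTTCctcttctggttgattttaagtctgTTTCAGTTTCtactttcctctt
Isg15 (chr4:156200863-156200908, minus strand): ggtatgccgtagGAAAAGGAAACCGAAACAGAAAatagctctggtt
Rsad2 (chr12:26456551-26456584, minus strand): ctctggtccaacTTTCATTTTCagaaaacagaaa
Bst2 (chr8:71537575-71537614, minus strand): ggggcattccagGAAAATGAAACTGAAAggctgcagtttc
Gbp3 (chr3:142559987-142560026, plus strand): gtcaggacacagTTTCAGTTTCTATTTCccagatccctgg
Ifi205 (chr1:174031868-174031901, minus strand): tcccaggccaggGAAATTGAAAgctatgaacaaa
Ifi213 (chr1:173599324-173599357, minus strand): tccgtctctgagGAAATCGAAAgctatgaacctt
Ifit3b, the neighbouring copy of Ifit3, had the same letters over its whole window. The other matches lay before Stat2, Oas1a, Oas3, Gbp2 and Trim30a. A match describes letters and is not a measured binding site.

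Libraries were made from sorted cells by a full-length, polyA-primed protocol, and a sample was deposited as counts per gene. Levels are given in CPM, counts scaled to a library total of 1000000. Depth was 7915242 to 27315750 counts in the refeeding experiment and 11349232 to 34466388 in the diet experiment. The defining markers of microglia, Kupffer cells, peritoneal macrophages and monocytes were higher in all 17, 13, 16 and 17 of their own libraries than in every library of another population. Colon libraries carried B and plasma cell markers at a summed 162 to 99700 CPM in fasted and up to 209000 CPM in refed mice, and fasted Kupffer libraries carried endothelial markers at 1830 to 3820 CPM. For 4 refed libraries (2 of islet and 2 of Kupffer cells) one label names the fast only, and they were kept as refed. The labels do not say that replicates are separate animals, and some islet replicates carry a pair of mouse numbers, so p-values here measure the spread between these libraries. Of 22 groups checked, 5 held a library whose score over the 37 genes stood apart: replicate 2 of the peritoneal normal diet group, adipose fasted replicate 5, microglia refed replicate 6, monocyte refed replicate 4 and peritoneal refed replicate 4.

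The 7 populations of fasted mice differed most in these genes between Kupffer cells and monocytes at the top and microglia at the bottom. The score, the mean over the 37 genes of log2(CPM + 1), was 5.67, 5.97 and 6.43 in fasted Kupffer cells (lowest, median and highest library) and 5.26, 5.67 and 5.90 in monocytes. Islet macrophages followed at 4.60, 5.15 and 5.64, colonic macrophages at 3.67, 4.65 and 5.53, and adipose macrophages at 3.28, 4.57 and 4.91. Peritoneal macrophages had 3.49, 3.86 and 4.12, and microglia 1.5, 2.39 and 3.20. The microglia of all 8 libraries lay below every library of the other 6 populations, whereas neighbours higher in the order overlapped. In bulk libraries, fewer cells of a type and less RNA per cell cannot be told apart, and this holds for every level given here.

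Of the 37 genes, 15 had their highest median CPM in monocytes, 12 in Kupffer cells, 6 in islet macrophages, 2 in peritoneal macrophages (Gbp2 and Gbp3), 1 in colon (Isg15) and 1 in adipose tissue (Parp14). The lowest median was in microglia for 24 genes, in peritoneal macrophages for 12 and in colon for 1 (Rtp4). In refed mice 27 genes had the same highest and 28 the same lowest population. Neighbours in the fasted orders were mostly not called: 24 of 222 neighbouring pairs passed an adjusted p of 0.05 (edgeR quasi-likelihood test, adjusted over all genes). The share of neighbouring pairs called over all genes was not computed, so this count cannot be read as particular to the members. Over all pairs of fasted populations 236 of 777 were called, against 17% of such tests over all genes.

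**Figure D1:**
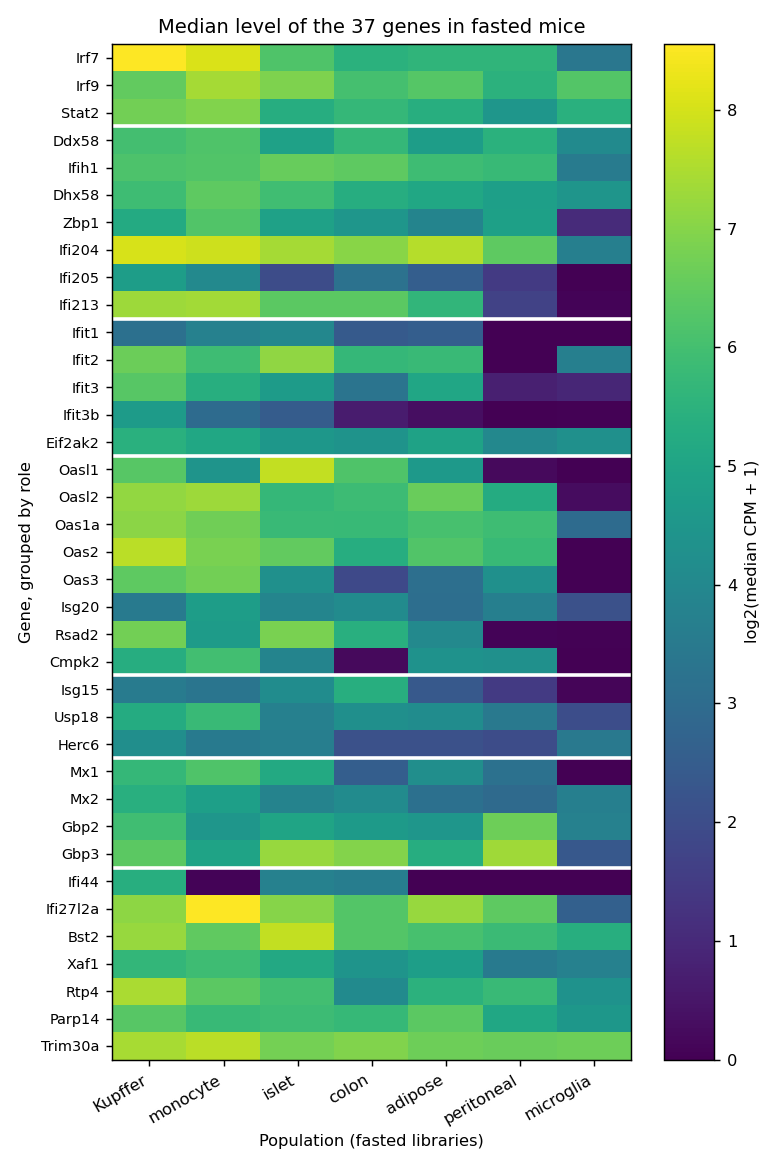
Heat map of the median level of each of the 37 genes (rows, ordered by role) in the fasted libraries of 7 populations (columns), as log2(CPM + 1). Kupffer cells and monocytes hold the highest median for 27 of the 37 genes, the microglia column is low for most, and Gbp2 and Gbp3 are highest in peritoneal macrophages.

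Set against the mean of the other 6 populations on the log scale, Kupffer cells had 17 of the 37 genes called higher and 0 lower (12.8% of all tested genes were called, 10.4% as higher), and the median log2 difference was 1.5 for the members and 0.17 for all genes. Monocytes likewise had 17 called higher and 0 lower (19% called, 10.4% as higher; median 1.24 against -0.03). Islet macrophages had 10 called higher and 0 lower (13.9%, 8.84% as higher; median 0.56 against -0.22), and adipose macrophages 3 and 0 (11.8%, 8.42% as higher; median 0.04 against 0.05). Colonic macrophages had 5 called higher and 2 lower (18.2% called, 15.5% as higher and 2.66% as lower; median 0.10 against 0.15), beside their B and plasma cell RNA, whose part in this was not tested. Peritoneal macrophages had 3 called higher and 10 lower (21%, 12.4% as higher and 8.57% as lower; median -0.72 against 0.08). Microglia had 0 called higher and 21 lower (27.7%, 12.3% as lower; median -2.53 against 0.17). The mean of the other 6 includes microglia, in which several members were near 0, so a gene at a middling level can be called higher by it.

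Among the transcription factors, Irf7, which drives the later wave of interferon genes, set Kupffer cells and monocytes apart. It was at 287, 369 and 482 CPM (lowest, median and highest library) in fasted Kupffer cells and at 158.5, 269 and 388 CPM in monocytes. Every library of these populations exceeded the highest of the other 5, an islet library at 131 CPM, and microglia had 0.338, 9.40 and 17.4 CPM. The difference from the other populations was 3.01 ± 0.31 on the log2 scale (SE) in Kupffer cells (edgeR adjusted p = 6.64e-11) and 2.28 ± 0.28 in monocytes (adjusted p = 5.7e-09). Between Kupffer cells and monocytes it was not called (adjusted p = 0.424), while monocytes stood above islet macrophages, the next in order (adjusted p = 0.00204). Irf7 shares exon sequence with Phrf1 on the other strand, and the protocol's strand is not given, so reads of the overlap could belong to either.

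Stat2 and Irf9, which act together in the interferon complex, were highest in monocytes and low in peritoneal macrophages. Stat2 was at 70.7, 119.9 and 170.0 CPM in monocytes and at 14.7, 21.6 and 67.4 CPM in peritoneal macrophages, so no peritoneal library reached the lowest monocyte library. Its log2 difference from the other populations was 1.25 ± 0.29 in monocytes (edgeR adjusted p = 0.000912) and -1.35 ± 0.35 in peritoneal macrophages (adjusted p = 0.00309). Irf9 gave 1.03 ± 0.18 in monocytes (adjusted p = 1.53e-05), 0.62 ± 0.21 in islet macrophages (adjusted p = 0.0443), -0.61 ± 0.21 in colon (adjusted p = 0.03) and -0.97 ± 0.21 in peritoneal macrophages (adjusted p = 0.000397).

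The sensors fell into those that differed widely and those that did not. Ifi213, of the PYHIN family of nucleic acid-binding proteins, was at 101.5, 165 and 390 CPM in monocytes and at 114.8, 156 and 238 CPM in Kupffer cells. In peritoneal macrophages it was at 0.0521, 2.24 and 6.04 CPM and in microglia at 0, 0.0517 and 0.989 CPM. No peritoneal or microglial library reached the lowest library of the other 5 populations, and peritoneal macrophages differed from adipose macrophages, their next neighbour in the order (edgeR adjusted p = 3.55e-07). Ifi204, of the same family, was at 153, 264 and 352 CPM in Kupffer cells (log2 difference 1.56 ± 0.31, adjusted p = 0.000162) and at 0.270, 11.9 and 17.5 CPM in microglia, below all other libraries. Zbp1, a sensor of left-handed nucleic acid that triggers cell death, was at 31.1, 74.3 and 179 CPM in monocytes (2.48 ± 0.41, adjusted p = 5.78e-06) and at 0, 1.05 and 8.93 CPM in microglia. Ddx58, which encodes the RNA sensor RIG-I, had medians from 15.9 CPM in microglia to 72.1 CPM in monocytes, and 0 of its 21 pairs of populations were called. Dhx58 likewise had 0 of 21 pairs called, as had Eif2ak2, Usp18, Herc6 and Mx2. PYHIN, OAS, IFIT and Mx genes have close copies next to them, and how the counting treated reads shared by copies is not given in the sources used here.

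IFIT genes encode proteins that bind foreign RNA ends, and Ifit2, Ifit3 and Ifit3b had low counts in peritoneal macrophages. Ifit2 was at 0, 0 and 3.84 CPM there, with 5 of 8 libraries at 0, against 39.8, 140.3 and 195 CPM in islet macrophages. Ifit3 was at 0, 0.686 and 4.78 CPM in peritoneal macrophages and at 21.6, 80.4 and 183 CPM in Kupffer cells, and these groups did not overlap. Against the other populations the peritoneal level was lower for Ifit2 (edgeR adjusted p = 2.62e-05), Ifit3 (adjusted p = 0.00072) and its copy Ifit3b (adjusted p = 0.000952). Ifit1 was at 0 in all 8 fasted microglia libraries, which allows at most 0.0210 CPM over the group (3 counts, counting error only), and at 0 in 6 of 8 peritoneal libraries. Summed per kilobase of gene length, the 4 IFIT genes and Eif2ak2 were at 49.4 to 163 CPM per kb in Kupffer libraries, 3.37 to 39.9 in microglia and 1.46 to 10.1 in peritoneal macrophages.

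The OAS genes make or resemble the enzymes that activate RNase L. Oas2 was at 136, 202 and 262 CPM in Kupffer cells (log2 difference 3.34 ± 0.34, edgeR adjusted p = 9.23e-11), whereas 6 of 8 microglia libraries were at 0 and the highest had 0.252 CPM. Against the same mean, which includes those microglia libraries, Oas2 was also called higher in monocytes (2.2 ± 0.32, adjusted p = 2.95e-07), adipose macrophages (1.85 ± 0.32, adjusted p = 2.22e-05), peritoneal macrophages (1.09 ± 0.33, adjusted p = 0.0124) and islet macrophages. Oasl1, an OAS relative without enzyme activity, was at 21.6, 215 and 279.6 CPM in islet macrophages (3.53 ± 0.76, adjusted p = 0.000669), above the peritoneal libraries at 0, 0.159 and 6.27 CPM. Rsad2, or viperin, which makes a chain-terminating nucleotide, was at 34, 114.3 and 240.3 CPM in islet macrophages and at 64.2, 104.5 and 168 CPM in Kupffer cells. These ranges overlapped, while the peritoneal libraries at 0, 0.0594 and 8.77 CPM and the microglia libraries at 0, 0.0315 and 12.3 CPM lay below both. Rsad2 was called higher in islet macrophages (3.18 ± 0.75, adjusted p = 0.00201) and in Kupffer cells. It was called lower in peritoneal macrophages (adjusted p = 0.0106) and in microglia (-4.81 ± 1.25, adjusted p = 0.00257).

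Isg15 encodes a ubiquitin-like protein that is joined to other proteins, and it was the only member with its highest median in the colon. It was at 18.3, 39.8 and 76.1 CPM there, at 9.87, 16.8 and 39.99 CPM in islet macrophages and at 0, 0.0969 and 4.17 CPM in microglia. The colon difference from the other populations was 3.08 ± 0.56 (edgeR adjusted p = 2.61e-05), but colon and islet libraries overlapped and did not pass the test (adjusted p = 0.583). Usp18, which removes ISG15 and blocks receptor signalling, was at 13.6, 54.5 and 65.6 CPM in monocytes and at 0.934, 9.93 and 21.3 CPM in peritoneal macrophages, with none of its pairs called.

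The guanylate-binding protein genes Gbp2 and Gbp3 were the 2 members with their highest median in peritoneal macrophages. Gbp3 was at 103.9, 159.6 and 239 CPM in peritoneal macrophages (1.70 ± 0.42, edgeR adjusted p = 0.00177) and at 0, 4.14 and 19.5 CPM in microglia. Gbp2 was at 55.3, 101.7 and 167 CPM in peritoneal macrophages (2.01 ± 0.59, adjusted p = 0.0097). Both genes respond to interferon-gamma as well as to type I interferon. Peritoneal and islet macrophages overlapped in Gbp3 (islet 72.5, 149.4 and 217 CPM), and for Gbp2 only the pair of peritoneal macrophages and microglia was called among 21.

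Of the remaining members, Ifi27l2a was the one gene called higher in 1 population than in each of the other 6. It was at 259.6, 375 and 428 CPM in monocytes, and the highest of the 44 other fasted libraries, of adipose macrophages, had 226 CPM. The difference from the mean of the others was 2.36 ± 0.26 (edgeR adjusted p = 5.36e-10) and that from adipose macrophages, the next in order, had an adjusted p of 0.0216. Bst2, or tetherin, which holds budding viruses on the cell surface, was at 153, 216 and 306 CPM in islet macrophages (1.51 ± 0.21, adjusted p = 1.43e-07) and at 8.92, 40.1 and 63.8 CPM in microglia. Rtp4 was at 123, 177 and 323.5 CPM in Kupffer cells (2.05 ± 0.34, adjusted p = 8.03e-06) and at 8.72, 15.97 and 83.0 CPM in colon (-1.46 ± 0.39, adjusted p = 0.00395). Ifi44 was at 0 in all 8 fasted microglia libraries and at 6.96, 39.7 and 99.5 CPM in Kupffer cells (adjusted p = 1.04e-05). Compared per kilobase, the scale on which genes can be ranked against each other, Ifi27l2a had the highest median level in 6 populations, from 163 CPM per kb in colon to 810 in monocytes, and Bst2 in microglia, at 44.4 CPM per kb.

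The members not described so far were called mostly in monocytes, Kupffer cells or microglia. Oas3 had medians from 0 CPM in microglia, whose highest library was at 0.189 CPM, to 104.9 CPM in monocytes (edgeR adjusted p = 9.96e-07 in monocytes and 7.65e-08 in microglia). Ifi205 was at 12.3, 25.95 and 59.2 CPM in Kupffer cells (adjusted p = 0.00188) and at no more than 0.203 CPM in microglia. Oas1a was at 69.9, 132 and 206 CPM in Kupffer cells (1.47 ± 0.38, adjusted p = 0.0044) and Oasl2 at 95.8, 158 and 243 CPM in monocytes (1.73 ± 0.46, adjusted p = 0.00464). Both were called lower in microglia (-3.11 ± 0.48 and -3.75 ± 0.70). Xaf1, a promoter of cell death, gave 1.29 ± 0.27 in monocytes (adjusted p = 0.000221) and -1.45 ± 0.33 in peritoneal macrophages (adjusted p = 0.000664), and Trim30a 0.80 ± 0.20 in monocytes (adjusted p = 0.00251). Mx1, a GTPase that traps viral ribonucleoprotein, and Cmpk2, a nucleotide kinase encoded next to Rsad2, were called in monocytes alone of the 7 contrasts, at medians of 72.1 and 61.03 CPM (adjusted p = 0.0266 and 0.0492). Ifih1 and Parp14 were called lower in microglia alone (-2.53 ± 0.50 and -1.24 ± 0.38). Isg20 was called in none of the 7 contrasts, with medians of 3.31 CPM in microglia to 26.4 CPM in monocytes.

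By size of p, the leading calls were Irf7, Oas2 and Ifi213 in Kupffer cells, Ifi27l2a, Ifi213 and Irf7 in monocytes, Bst2, Ifi213 and Ifi44 in islet macrophages, and Isg15, Ifi44 and Ifi213 in colon. In adipose tissue all 3 calls were Oas2, Ifi213 (1.5 ± 0.39, edgeR adjusted p = 0.00607) and Ifi27l2a (0.86 ± 0.29, adjusted p = 0.0409). Microglia were led by Oas2 (adjusted p = 4.27e-17), Ifi27l2a (-4.51 ± 0.43, adjusted p = 3.15e-12), Ifi213 (adjusted p = 4.98e-12) and Ifi204 (-4.03 ± 0.41, adjusted p = 2.93e-11). Irf7 (-3.28 ± 0.42), Zbp1 (-4.12 ± 0.64), Bst2 (-1.28 ± 0.23) and Gbp3 (-3.49 ± 0.64) were also lower, as were Oas3 and Oas1a. In peritoneal macrophages Ifi213 led (-3.96 ± 0.59, adjusted p = 5.27e-07), and Oasl1 (adjusted p = 0.00573) and Bst2 (-0.73 ± 0.22, adjusted p = 0.0116) were also lower.

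In the refed libraries the same contrasts called 20 members in Kupffer cells (13.9% of all genes), 16 of them among the 17 called in fasted mice, and 19 in monocytes (21.3%), 15 of them among those 17. Microglia had 20 called (28.6%), 17 of them among the 21, and peritoneal macrophages 14 (20.3%), 9 of them among the 13. Islet macrophages had 11 called (15.5%) and shared 6 of 10, colonic macrophages had 9 (19.3%) and shared 5 of 7, and adipose macrophages had 6 (14.4%) and shared 2 of 3. Of the named values, only that of Oas2 in islet macrophages turned, from 1.35 ± 0.37 in fasted mice (edgeR adjusted p = 0.00866) to -1.03 in refed mice, where it was not called (adjusted p = 0.353).

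Of 128 further genes of the interferon pathway, 110 were tested across the fasted populations. Kupffer cells had 28 called higher and 1 lower (10.4% and 2.4% of all genes), monocytes 39 and 8 (10.4% and 8.66%), islet macrophages 23 and 7 (8.84% and 5.01%) and colon 24 and 4 (15.5% and 2.66%). Adipose macrophages had 14 and 12 (8.42% and 3.43%), peritoneal macrophages 9 and 33 (12.4% and 8.57%) and microglia 12 and 40 (15.4% and 12.3%). Among the ligands, Ifnb1, which encodes interferon-beta, was found mainly in islet libraries. It had counts in 12 of 13 islet libraries of the refeeding experiment, at 46, 49.8, 35.4, 8.91, 0 and 11.4 CPM in fasted and at 75.2, 10.1, 19.3, 6.75, 3.13, 56.8 and 74.3 CPM in refed mice. Colon had counts in 7 of 17 libraries, up to 24.3 CPM, and each other population in 1 library. The islet level was called higher than the mean of the others (edgeR adjusted p = 5.73e-08), and so was that of colon (adjusted p = 0.00658). In the diet experiment 7 of 11 islet libraries had counts, up to 10.3 CPM. Ifng, the interferon-gamma gene, had counts in 14 of 110 libraries and in 1 of 37.

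The receptor chain Ifnar1 was at 200.4, 302 and 413 CPM in islet macrophages (log2 difference 0.76 ± 0.20, edgeR adjusted p = 0.00517) and at 61.7, 98.98 and 130.5 CPM in peritoneal macrophages (-1.06 ± 0.20, adjusted p = 4.86e-05), and these ranges did not overlap. Tmem173, which encodes the DNA-pathway adaptor STING, was at 501, 664 and 1231 CPM in microglia (2.69 ± 0.14, adjusted p = 1.59e-21) and at 28, 34.1 and 59.1 CPM in peritoneal macrophages (-2.34 ± 0.20, adjusted p = 1.18e-13). Microglia were thus lowest in most members and highest in this sensor adaptor, with no microglia library below 501 CPM and no other fasted library above 336 CPM. Irf8, a macrophage lineage factor of the same family as Irf7, was lower in peritoneal macrophages (-2.31 ± 0.19, adjusted p = 8.91e-14) and higher in microglia (1.23, adjusted p = 2.47e-09).

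Refeeding for 2 h changed none of the members past the threshold in any of the 7 populations. edgeR called 0 of the 35 members tested in adipose macrophages (0.0% of all genes were called), 0 of 37 in colon (0.0%), 0 of 37 in islet macrophages (0.0%), 0 of 37 in Kupffer cells (0.0%), 0 of 24 in microglia (0.0%), 0 of 36 in monocytes (0.0%) and 0 of 29 in peritoneal macrophages (0.432%). At an unadjusted p under 0.05 the members numbered 2, 1, 0, 2, 2, 0 and 4 in that order, against 5.16%, 2.59%, 2.42%, 3.27%, 2.59%, 2.65% and 11% of all genes. DESeq2 called Gbp3 in microglia and Gbp3 in peritoneal macrophages and no other member, and limma-voom called 0. The members' median log2 differences, refed over fasted, were 0.13, 0.30, 0.05, -0.19, 0.06, -0.04 and -0.15. Scores of fasted and refed libraries overlapped in every population, and the mean difference ran from -0.18 in Kupffer cells to 0.38 in colon.

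**Figure D2:**
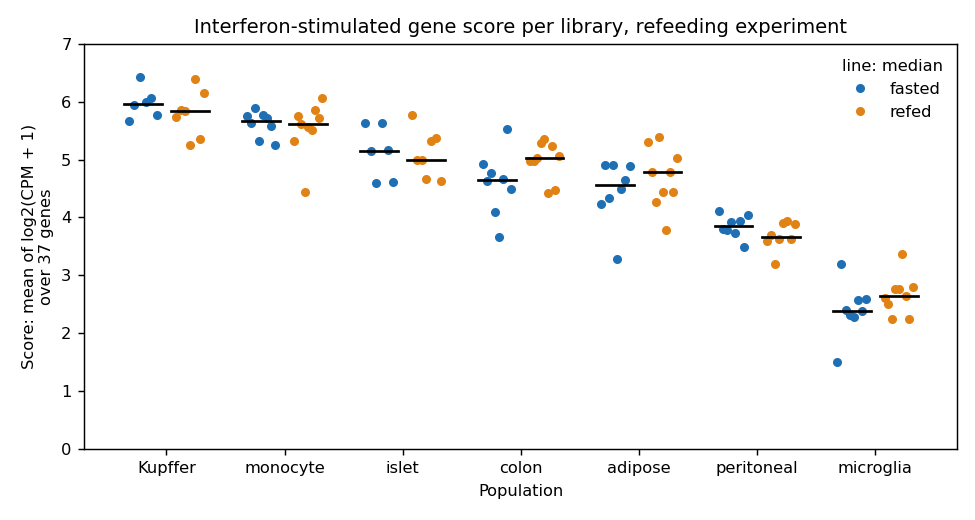
Score over the 37 genes, mean of log2(CPM + 1), of each of the 110 libraries of the refeeding experiment, by population, with fasted and refed libraries side by side. Fasted and refed points overlap in all 7 populations, while Kupffer cells and monocytes lie highest and microglia lowest.

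The smallest p-values lay in peritoneal macrophages. Gbp3 was at 103.9, 159.6 and 239 CPM in fasted and at 49.4, 116.6 and 163 CPM in refed libraries, with a log2 difference of -0.67 ± 0.18 (edgeR adjusted p = 0.121). Oasl2 was at 22.5, 37.1 and 48.6 CPM and at 10.8, 19.7 and 41.4 CPM (-0.78 ± 0.28, adjusted p = 0.27). Gbp2 was at 55.3, 101.7 and 167 CPM and at 54.5, 72.5 and 115.4 CPM (-0.59 ± 0.24, adjusted p = 0.344). Ranges overlapped in all 3, and Irf9 went the other way (0.44 ± 0.19, adjusted p = 0.401).

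In the other populations the members nearest to the threshold had adjusted p-values of 0.917 to 1 (edgeR). In microglia Gbp3 was at 0, 4.14 and 19.5 CPM in fasted and at 3.06, 43.1 and 92.6 CPM in refed libraries, and Bst2 gave 0.84 ± 0.35 and Ddx58 1.45 ± 0.94. Refed microglia replicate 6, which had the highest score of its group, also carried B and plasma cell markers at 7730 CPM and neutrophil markers at 1170 CPM, and the part of these in its score was not tested. In colon Gbp2 was at 4.99, 24.2 and 42.3 CPM in fasted and at 28.03, 41.5 and 63.4 CPM in refed libraries (0.86 ± 0.36), followed by Isg15 at 0.50 ± 0.27 and Ifih1, the RNA sensor MDA5, at 0.48 ± 0.23. In adipose macrophages Zbp1 was at 8.19, 13.5 and 25.5 CPM and at 19.5, 29.8 and 34.7 CPM (0.87 ± 0.38), with Mx2 at 2.34 ± 1.01 and Rsad2 at 1.23 ± 0.75. In Kupffer cells Rsad2 gave -0.66 ± 0.27, Parp14 0.70 ± 0.30 and Oas2 0.39 ± 0.22. In islet macrophages Oas1a gave 0.51 ± 0.26, Ifit2 0.89 ± 0.47 and Oas2 -1.32 ± 0.86, and in monocytes Ifi204 gave -0.39 ± 0.20, Stat2 -0.53 ± 0.28 and Xaf1 -0.54 ± 0.29.

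A test of whether the refed against fasted difference varied among the 7 populations called 3 members, against 10.1% of 18640 genes. Ifi213 (edgeR adjusted p = 0.0014) was at 0.0521, 2.24 and 6.04 CPM in fasted and at 0, 0.0201 and 0.285 CPM in refed peritoneal macrophages, and in microglia at 0, 0.0517 and 0.989 CPM and at 0, 0.215 and 6.38 CPM. Oas2 (adjusted p = 0.00267) was at 9.18, 90.1 and 124 CPM in fasted and at 0, 19.8 and 69.8 CPM in refed islet macrophages, and in microglia at 0, 0 and 0.252 CPM and at 0, 0.139 and 22.6 CPM. Ifi44 (adjusted p = 0.0347) was at 0, 11.4 and 63.0 CPM in fasted and at 0, 2.12 and 21.6 CPM in refed colonic macrophages. All 3 were near 0 in at least 1 population. limma-voom called 1 member in this test.

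Of the further pathway genes, 1 of 97 tested in peritoneal macrophages was called, against 0.432% of all genes. Socs3, an inhibitor of cytokine receptor signalling, was at 69.6, 103.8 and 135 CPM in fasted and at 132, 231 and 435 CPM in refed peritoneal libraries (1.14 ± 0.20, edgeR adjusted p = 0.0235). It had 1.04 ± 0.30 in adipose macrophages (adjusted p = 0.499), and its difference among populations was not called (adjusted p = 0.53).

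In the diet experiment the only edgeR call on a member was made in peritoneal macrophages, where 1 normal diet library had a score above all others. Scores of the normal diet libraries were 3.85, 6.45, 4.14, 4.08 and 3.8 (replicates 1 to 5). High-fat diet libraries had 4.10, 4.78, 4.52 and 4.35, and libraries with STZ had 4.54, 5.04, 5.31, 4.90 and 5.12. Normal diet replicate 2 lay above every other peritoneal library, and without it the normal diet group lay below all STZ libraries. It exceeded all 4 other normal diet libraries in 33 of 36 tested members (12.9% of genes did so), the exceptions being Isg20, Bst2 and Ifi27l2a. Its level was 1.19 to 27.7 times the mean of the other 4, with a median of 5.47 over 32 members and 0.94 over all genes. As this library was picked for its high score over these same genes, these values describe it and do not test it. It also had a summed 855 CPM of B and plasma cell markers, against 34.8 to 121 CPM in the other normal diet libraries, and 146 CPM of plasmacytoid dendritic cell markers, against 75.3 to 120 CPM. Their part in its levels was not tested, and the counts of called members in each peritoneal diet contrast are given with and without it.

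**Figure D3:**
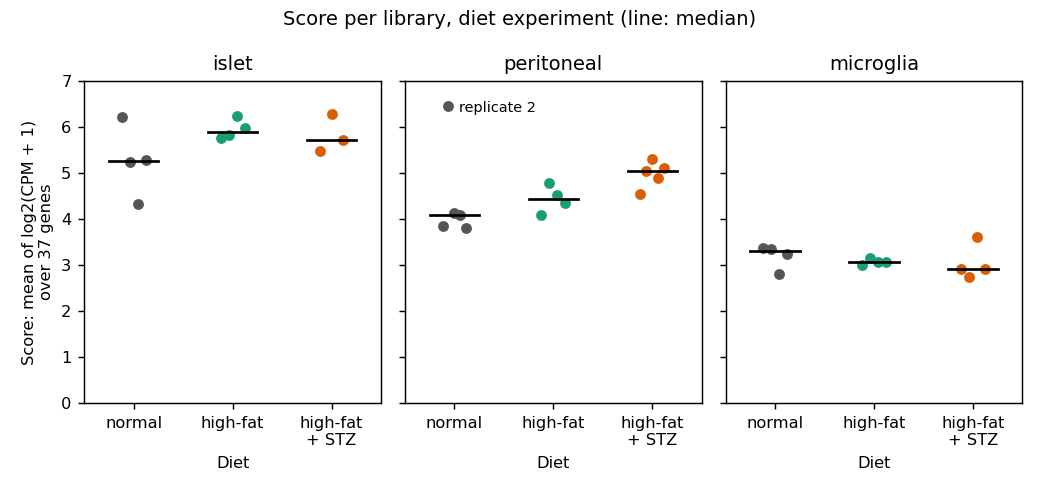
Score over the 37 genes, mean of log2(CPM + 1), of the 37 libraries of the diet experiment, by population and diet. Peritoneal normal diet replicate 2 stands at 6.45 above the other normal diet libraries (3.8 to 4.14), the peritoneal STZ libraries lie at 4.54 to 5.31, and the microglia groups overlap.

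With all libraries, the high-fat diet with STZ was set against the normal diet in peritoneal macrophages. It gave 1 of 36 members called (1.29% of all genes, 0.665% as higher), with 7 at an unadjusted p under 0.05 (19.6% of genes). Of the members 30 of 36 were higher (49.2% of genes), with a median log2 difference of 0.33 against -0.01 over all genes. The called member was Ifi205, a PYHIN gene (2.62 ± 0.51, edgeR adjusted p = 0.029). It was at 0.267, 8.24, 1.54, 1.45 and 0.358 CPM on the normal diet and at 6.22, 9.74, 7.08, 12.1 and 6.71 CPM with STZ. All STZ libraries lay above 4 of the 5 normal diet libraries. Ifi27l2a (1.34 ± 0.40, adjusted p = 0.111) and Isg20, an RNA exonuclease (-0.89 ± 0.27, adjusted p = 0.125), came next without passing. Leaving out 1 library at a time gave 0 calls without normal diet replicate 1, 4 or 5 or STZ replicate 1, 4 or 5, 3 without STZ replicate 2 and 9 without normal diet replicate 2.

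Normal diet replicate 2 was singled out after seeing the data, by its high score over these same genes, so leaving it out lowers the normal diet group in the members, and the counts without it are a description. Without it the same comparison called 9 members (1.71% of genes), all higher. In that fit 28 members had an unadjusted p under 0.05, against 2434 of 13132 genes. Of the members 34 of 36 were higher, against 6395 of 13132 genes, with a median of 0.88 against -0.02. Ifi213 was at 0.735, 0.863, 1.01 and 0.286 CPM in the other 4 normal diet libraries and at 8.65, 14.1, 28.9, 18.7 and 18.7 CPM with STZ (4.52 ± 0.51, edgeR adjusted p = 0.00275), whereas replicate 2 had 41.1 CPM. Oasl2 was at 26.9, 31.4, 33 and 18.4 CPM and at 61.1, 109.7, 119.2, 86.8 and 119.5 CPM (1.71 ± 0.24, adjusted p = 0.00586), with replicate 2 at 343 CPM. The STZ libraries lay above all 4 normal diet libraries in both.

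Oas2 was at 40.6, 27.8, 57.8 and 46.2 CPM on the normal diet without replicate 2 and at 113.1, 131, 154, 96.9 and 151 CPM with STZ (1.55 ± 0.23, edgeR adjusted p = 0.00827). Irf7 was at 43.9, 91.02, 46.5 and 42.4 CPM and at 77.1, 98.7, 145, 113.3 and 156 CPM (1.09 ± 0.23, adjusted p = 0.0371), with 1 normal diet library above the lowest STZ library. The others were Ifi44 (4.29 ± 0.58), Ifi205 (3.17 ± 0.48), Oasl1 (2.86 ± 0.57), Oas3 (2.05 ± 0.36) and Ifi204 (1.15 ± 0.18), with adjusted p-values of 0.00535 to 0.03. Of the further pathway genes tested without replicate 2, 9 were called, all higher (1.71% of all genes were called). Among them were the PYHIN gene Ifi207 (1.89 ± 0.21, adjusted p = 0.00275) and Irgm1, a GTPase that acts on intracellular pathogens (0.79 ± 0.17, adjusted p = 0.0353). When replicate 2 was kept, the same comparison called 0 of the further pathway genes (1.29% of all genes). Their calls therefore rest on leaving out a library picked for its high score. Without replicate 2, all STZ libraries exceeded all normal diet libraries in 13 members (3.76% of genes), and with it in 0 (2.47% of genes).

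**Figure D4:**
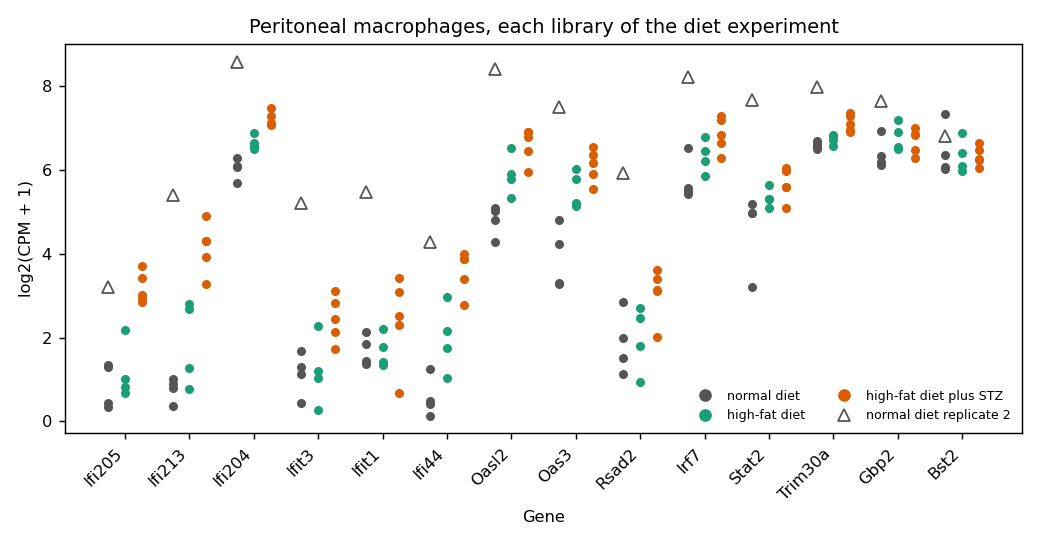
CPM of 14 of the genes in each peritoneal library of the diet experiment (log axis), by diet, with normal diet replicate 2 drawn as a triangle. For Ifi205 and Ifi213 the STZ libraries lie above all high-fat diet libraries, and the triangle lies above the other normal diet points for most genes.

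Against the high-fat diet alone, STZ gave 0 members called by edgeR in peritoneal macrophages (0.0% of genes). This comparison does not use the normal diet libraries directly. It had 5 members at an unadjusted p under 0.05 (8.08% of genes) and 33 of 36 higher (50.1% of genes). The median was 0.52, against 0.0 over all genes. DESeq2 called 1 and limma-voom 0. Without normal diet replicate 2, which enters the same fit, 0 were called (0.0% of genes) and 32 of 36 were higher (6475 of 13132 genes). The median was then 0.40, against -0.01 over all genes. In that fit 10 had an unadjusted p under 0.05, against 1006 of 13132 genes. Ifi205 was at 0.777, 3.53, 0.999 and 0.607 CPM on the high-fat diet, below all 5 STZ libraries (3.02 ± 0.56, edgeR adjusted p = 0.0683). Ifi213 was at 0.707, 5.45, 5.93 and 1.42 CPM, also below all STZ libraries (3.03 ± 0.94, adjusted p = 0.335), and Ifit3 gave 2.16 ± 0.78 (adjusted p = 0.445). All STZ libraries exceeded all high-fat diet libraries in 5 members, Ifi213, Ifi204, Ifi205, Trim30a and Ifit2 (2.85% of genes). Ifi204 was at 94.3, 118.2, 89.6 and 99.2 CPM on the high-fat diet and at 136, 134, 179, 139 and 155 CPM with STZ. Trim30a, which dampens inflammatory signalling, was at 94.8, 110.3, 104.2 and 113.4 CPM and at 119.7, 137, 163, 123 and 155 CPM. Classical monocyte markers summed to 188 to 272 CPM on the high-fat diet, 207 to 293 CPM on the normal diet and 419 to 678 CPM with STZ, and markers of large peritoneal macrophages to 9340 to 16000 CPM in STZ replicates 3, 4 and 5 and to 19900 to 26200 CPM in the other libraries. Their part in the STZ levels was not tested.

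The high-fat diet against the normal diet gave 0 members called in peritoneal macrophages (0.0% of genes). At an unadjusted p under 0.05 there were 0 members (3.54% of genes), and the median was -0.13, against -0.01 over all genes. DESeq2 and limma-voom also called 0. The smallest p-values were those of Ifit3 (-1.31 ± 0.78), Ifi27l2a (0.70 ± 0.42) and Oas2 (0.54 ± 0.36), with an edgeR adjusted p of 0.989. Without replicate 2 of the normal diet, picked for its high score, the comparison still had 0 called (0.0% of genes). In that fit 34 of 36 members were higher, against 6429 of 13132 genes, and the median was 0.45 against -0.01. An unadjusted p under 0.05 was found for 11 members, against 396 of 13132 genes. All high-fat diet libraries then exceeded all normal diet libraries in 7 members, Ifi204, Ifih1, Ddx58, Oasl2, Oas2, Oas3 and Eif2ak2 (1.78% of genes). The 2 contrasts with the normal diet share its libraries.

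In islet macrophages no member was called under any diet contrast (0.0% of genes for each). The high-fat diet against the normal diet had 2 of 37 at an unadjusted p under 0.05 (2.42% of genes), 33 higher and a median of 0.34 against 0.13 over all genes. STZ against the normal diet had 5 (5.66% of genes), 32 higher and a median of 0.64 against -0.15, and STZ against the high-fat diet had 2 (4.99% of genes), 24 higher and a median of 0.18 against -0.29. DESeq2 called 1 member, Ifi44, in the first contrast and 3, Ifi44, Oasl1 and Rsad2, in the second, and limma-voom called 0. Oasl1 was at 624, 235, 167 and 122 CPM on the normal diet, at 557, 348, 255 and 166 CPM on the high-fat diet and at 429.6, 389.7 and 274 CPM with STZ (0.98 ± 0.19 for STZ against normal diet, edgeR adjusted p = 0.401). Rsad2 was at 463, 115.2, 53.5 and 79.7 CPM, at 414, 175.5, 127 and 95.6 CPM and at 182, 205 and 172 CPM (1.10 ± 0.30, adjusted p = 0.736). Normal diet replicate 1 was the highest library for both genes, so the groups overlapped. Ifi44 was at 5.95, 0.0701, 0 and 1.67 CPM on the normal diet and at 47.1, 26.6, 8.91 and 19.7 CPM on the high-fat diet. With STZ it was at 9.75, 39.9 and 32.5 CPM (edgeR adjusted p = 0.76 for STZ against normal diet).

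Microglia likewise had 0 of 33 tested members called in the 3 contrasts (0.0% of genes for each), by edgeR, DESeq2 or limma-voom. At an unadjusted p under 0.05 there were 2 for the high-fat against the normal diet (3.16% of genes; median -0.28), 0 for STZ against the normal diet (2.15%; median -0.01) and 3 for STZ against the high-fat diet (4.77%; median 0.15). Ddx58 was at 46.4, 39.1, 59.8 and 56.7 CPM on the normal diet, at 26.9, 30.9, 29.6 and 42.4 CPM on the high-fat diet and at 46.7, 72.7, 54.2 and 57.9 CPM with STZ. Its high-fat diet level was lower in 3 of 4 libraries than any in the other groups, with a log2 difference of -0.67 ± 0.20 from the normal diet and 0.66 ± 0.21 for STZ over the high-fat diet (edgeR adjusted p = 1 for each). Rtp4 gave -0.90 ± 0.37 and Dhx58 -0.90 ± 0.49 for high-fat against normal diet. The smallest p-values of the other contrasts were those of Isg20, Ifit3b and Ifi213 for STZ against the normal diet and, besides Ddx58, of Ifit3b and Rtp4 (0.94 ± 0.40) for STZ against the high-fat diet. In microglia 1 cohort held a single library, of the STZ group, and that library does not enter the fitted difference. Whether the diet differences varied among the 3 populations was tested too. By edgeR 0 members were called for the high-fat diet (0.308% of genes) and 0 for STZ (0.708% of genes). At an unadjusted p under 0.05 there were 4 and 3 of 37 members, against 7.78% and 11.1% of all genes. limma-voom called 0 in each.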

How the data were processed

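RNA-seq was run on 110 libraries of the refeeding and 37 of the diet experiment. The authors deposited raw counts per Ensembl gene, not normalized. Per the submitters' processing notes, reads were trimmed with Trimmomatic 0.36, aligned to mm10 with STAR 2.5.1a and counted with featureCounts; the sources used here give no strand setting and no rule for multi-mapped reads. Versioned identifiers matched the annotation for 45823 of 50686 genes and without the version for 50462, and the rest held 0.0071% of the refeeding and 0.0074% of the diet counts. Cells were sorted by flow cytometry, with 400 cells a library in the refeeding and islet sets, 5000 for diet microglia and 100000 for diet peritoneal macrophages. No 2 libraries of the 443 pairs compared within groups were identical.

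The 37 members and the pathway and marker lists were chosen with earlier results of these data known. Each fit ran on all genes of a table that passed edgeR's low-count filter, with TMM factors and edgeR 4.0.16's quasi-likelihood test in R 4.3.3, with Benjamini-Hochberg adjustment over all tested genes and a threshold of 0.05. Refeeding was tested within each population, diet within each population over all 3 diets, and populations over the 52 fasted libraries, each with the labelled cohort as a term. In islet and peritoneal diet samples the replicate number is the labelled cohort, so that term is the replicate block. Fold changes are log2 with their standard error, and CPM values use TMM library sizes. A limit for a group at 0 is 3 counts over the group and covers counting error only. Text values were named by a rule: every called member up to 10, the 3 with the smallest p where fewer than 3 were called, and levels of 16 listed genes. Alternatives were DESeq2 1.42.0, voom with quality weights (limma 3.58.1), other size factors, no low-count filter, no cohort term, the replicate block, refed in place of fasted libraries, a score pseudocount of 5 in place of 1, and each library left out.

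The fits were tested on simulated data in which all libraries of a comparison shared the real mean of each gene, without group or cohort differences. Then 200 genes were changed, drawn from those above a minimum mean level, which some members do not reach. The shares recovered therefore need not hold for the members. Of the calls, 6.98%, 1.02%, 5.46% and 1.92% were false, in the order that follows. Of the genes changed 2-fold and 4-fold, 4% and 36% were recovered for refeeding in Kupffer cells (11040 genes), 30% and 67% for refeeding in peritoneal macrophages (10843 genes), 73% and 100% for STZ against normal diet in peritoneal macrophages (12966 genes) and 11% and 40% for Kupffer cells against peritoneal macrophages (15461 genes). Depth was 7915242 to 27315750 counts in the refeeding and 11349232 to 34466388 in the diet libraries. In all, 10 of the members share exon sequence with another gene (Irf7, Irf9, Dhx58, Eif2ak2, Oasl1, Usp18, Herc6, Gbp2, Rtp4 and Parp14), and reads of those stretches may be either gene's. No promoter entry was held for 10 members, and no protein sequences were used here. One gene of the pathway list is not reported here.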

Additional observations from a re-analysis of the deposited data

Results flagged for a closer look

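In 5 of the 22 groups of 4 to 10 libraries, 1 library's score over the 37 genes lay farther from its neighbours than 95% of such groups allow, and chance marks about 1 group in 20. Peritoneal normal diet replicate 2 had 6.45, against 3.8 to 4.14 in the 4 others. Adipose fasted replicate 5 had 3.28, against 4.23 to 4.91. Refed microglia replicate 6 had 3.37, against 2.24 to 2.80, refed monocyte replicate 4 had 4.44, against 5.32 to 6.07, and refed peritoneal replicate 4 had 3.20, against 3.59 to 3.94. Leaving out the last 4 in turn, a setting chosen after seeing the data, left the number of members called on refeeding at 0 in their populations.

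The test of whether the refed against fasted difference varied among the 7 populations called 3 of 37 members, against 10.1% of all genes, and limma-voom called 1. The 3 were Ifi213 (edgeR adjusted p = 0.0014), Oas2 (adjusted p = 0.00267) and Ifi44 (adjusted p = 0.0347).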

How the results depend on the processing

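Of 999 alternatives for the named gene values, 951 kept direction and side of the threshold, 32 lost a call, 14 gained one and 2 reversed. The 951 include values called in neither setting, so they do not measure how stable the calls were. The reversed values were Oas2 in islet macrophages, at -1.03 with refed libraries, and Rsad2 for STZ on the high-fat diet in islet macrophages, at -0.12 with no replicate block. For STZ against the normal diet in peritoneal macrophages, the 1 call became 6 with DESeq2, 2 without the low-count filter, 0 with voom, 0 with no replicate block and 0 to 9 when 1 library was left out. STZ against the high-fat diet there went from 0 to 1 with DESeq2 and without the filter, and to 0 to 1 when 1 library was left out (1 without STZ replicate 2). DESeq2 gave 1 call for refeeding in microglia and 1 in peritoneal macrophages, where no filter also gave 1, and in islet macrophages 1 for high-fat against normal diet and 3 for STZ against normal diet. Among fasted populations, adipose macrophages had 6 calls without the filter, 6 in refed libraries and 10 with voom, colon 13 without the filter and Kupffer cells 27 with voom. The replicate block in place of the cohort left 5 calls of 10 in islet macrophages. The refeeding difference among populations had 9 calls without the filter and 1 with voom, and that of the high-fat diet 1 without the filter. The cause of these changes was not tested. Leaving out adipose fasted replicate 5, chosen after seeing the data, gave 4 calls in adipose macrophages, 12 in islet macrophages and 23 in microglia. Except for refed libraries and the fits without normal diet replicate 2, the share of all genes called under these settings is not given. The counts under the other settings, here and above, therefore cannot be read as particular to the members.

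The score difference from the other 6 populations was 1.63 in Kupffer cells, 1.21 in monocytes, -0.85 in peritoneal macrophages and -2.54 in microglia. With a pseudocount of 5 it was 1.22 in Kupffer cells, 0.90 in monocytes and -1.74 in microglia. Over the 22 members tested in every comparison it was 1.15 in Kupffer cells, -0.19 in peritoneal macrophages and -1.97 in microglia, and the high-fat against normal diet difference in microglia turned from -0.13 to 0.12. Those 22 passed the low-count filter in every comparison, so members with few counts in peritoneal macrophages or microglia were left out beforehand. The values over the 22 therefore do not test how stable the population differences were. Fasted and refed libraries with the same replicate number deviated together little (correlation -0.04 to 0.18, over 0.1 in 6 of 49 pairs), and the replicate block changed no call on refeeding.

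In simulated data, with changes put only on genes above a minimum mean level, 4% of 2-fold changes on refeeding were recovered in Kupffer cells and 30% in peritoneal macrophages. The other 5 populations were not simulated.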

Other observations

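Across the 52 fasted libraries, the genes outside the lists whose level followed the score most closely, by Spearman's rho, were Itgal (0.87), which encodes an integrin chain of leukocytes, Clec12a (0.85), Sirpb1b (0.84), Mndal (0.84), a PYHIN gene, and Cd47 (0.82). Among the members, Ifi213 (0.88) and Ifi204 (0.86) followed it most, although each is part of the score, and Gbp2 (0.18), Gbp3 (0.19) and Herc6 (0.25) least. The 52 libraries come from 7 populations and are not independent points, so no p is given.

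Of the other ligand genes, Ifnk had counts in 43 of 110 refeeding libraries, up to 4.35 CPM, and in 18 of 37 diet libraries. Ifna13 had counts in 2 colon libraries, up to 3.94 CPM.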
